A study of Mus musculus with 2 samples.

Results

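Sphingosine 1-phosphate (S1P) and lysophosphatidate (LPA) signalling was examined through 10 genes, taken by name as a fixed list and described in every cell class of a normal and a fibrotic mouse liver. All 10 were listed in both count tables, the normal one with 20468 genes, the fibrosis one with 20473 and 19219 of them shared. The study profiled non-parenchymal cells (NPCs) by 10x Chromium 3′ single-cell RNA-seq to ask how endothelial and mesenchymal cells differ in fibrosis. The normal library came from 1 male C57BL/6 mouse given the olive oil vehicle intraperitoneally, and the fibrosis library from 1 male C57BL/6 mouse given CCl4, a hepatotoxin, in 2 injections per week for 6 weeks, both from the age of 8 weeks. No transgene is given for either mouse, and hepatocytes were removed by low-speed centrifugation before loading. The hepatocyte-like class described here is named by markers only, and whether it holds intact hepatocytes was not tested. Since each condition is a single library, the conditions could not be tested against each other, and each difference between libraries is a difference between 2 mice.

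S1P is made inside cells by sphingosine kinases, leaves endothelial cells through the exporter Spns2 and acts on G-protein-coupled receptors, of which S1pr1 couples mainly to Gi and keeps endothelial junctions and lymphocyte traffic in order, while S1pr2 and S1pr3 also couple to G12/13 and Gq and have been linked to contractile and fibrogenic cells. LPA is made outside cells by autotaxin, the secreted enzyme encoded by Enpp2, and acts on receptors such as Lpar1, which is known in fibroblasts. Both lipids are removed by phosphatases: Sgpp1 cleaves S1P in the endoplasmic reticulum, and Plpp1 and Plpp3 act on lipid phosphates at the cell surface.

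In the GENCODE annotation of mm10, the receptor genes lie at chr3:115710433-115715072 (S1pr1, minus strand), chr9:20962361-20976781 (S1pr2, minus), chr13:51408639-51422797 (S1pr3, plus) and chr4:58435255-58553898 (Lpar1, minus). Sphk1 lies at chr11:116530925-116536674 (plus), Spns2 at chr11:72451638-72489904 (minus) and Enpp2 at chr15:54838901-54952892 (minus). The phosphatase genes lie at chr12:75714249-75735729 (Sgpp1, minus), chr13:112800792-112867894 (Plpp1, plus) and chr4:105157347-105232764 (Plpp3, plus). All 10 are protein coding.

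Promoter sequence was looked up in RefSeq (build GRCm38.p6) for the 250 bases before each start, and 7 of the 10 genes had an entry (S1pr1, Plpp1 and Enpp2 had none). The 4 printed here stand for the patterns described with the levels: Plpp3 and Sgpp1 for the endothelium, Spns2 for endothelial and cholangiocyte-like cells, and S1pr3 for mesenchymal cells. Capitals mark CACCC or its reverse complement GGGTG, the core of the site read by Krüppel-like factors, a family with flow-responsive members in endothelium. The runs cover chr4:105157097-105157346 on the plus strand (Plpp3), chr12:75735730-75735979 on the minus strand (Sgpp1), chr11:72475028-72475277 on the minus strand (Spns2) and chr13:51408368-51408617 on the plus strand (S1pr3), each written 5′ to 3′.
Plpp3: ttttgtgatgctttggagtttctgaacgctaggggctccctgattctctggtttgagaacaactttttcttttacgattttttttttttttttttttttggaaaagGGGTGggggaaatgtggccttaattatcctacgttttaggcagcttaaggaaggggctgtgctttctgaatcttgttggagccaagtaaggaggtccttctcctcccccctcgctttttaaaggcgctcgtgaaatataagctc
Sgpp1: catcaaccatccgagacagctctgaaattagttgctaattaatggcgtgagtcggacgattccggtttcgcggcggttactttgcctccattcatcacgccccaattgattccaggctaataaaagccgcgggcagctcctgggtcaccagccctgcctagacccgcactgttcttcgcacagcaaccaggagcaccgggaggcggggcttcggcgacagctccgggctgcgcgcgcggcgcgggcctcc
Spns2: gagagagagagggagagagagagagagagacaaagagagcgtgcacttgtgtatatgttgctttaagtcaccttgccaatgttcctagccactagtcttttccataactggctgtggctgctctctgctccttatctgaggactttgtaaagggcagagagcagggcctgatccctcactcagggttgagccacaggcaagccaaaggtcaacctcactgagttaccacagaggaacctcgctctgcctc
S1pr3: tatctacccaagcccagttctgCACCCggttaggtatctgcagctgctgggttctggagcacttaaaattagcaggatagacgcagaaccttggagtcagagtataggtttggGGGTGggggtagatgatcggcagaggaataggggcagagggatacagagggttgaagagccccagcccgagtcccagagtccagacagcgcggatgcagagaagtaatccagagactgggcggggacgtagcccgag
Searched on both strands, CACCC occurred 1 time upstream of Plpp3, 2 times upstream of S1pr3 and 0 times in the windows of Sgpp1 and Spns2, the latter before a start inside the annotated gene. It was present in 9 of the 13 member promoters and in 52.0% of all 32851 promoters of this length. GATAA (or TTATC), the core of the GATA site, was present in 4 of 13 against 22.6% of all, among them Plpp3 and Spns2, and CCGGAA (or TTCCGG), an ETS core, in 4 of 13 against 12%, among them Sgpp1 and S1pr2. Several of the 13 windows overlap, since Sphk1 has 5 starts and Lpar1 has 3, and a match describes letters only.

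The deposited tables held 8130 cells and 44062632 unique molecular identifiers (UMIs) in the normal library, and 6437 cells and 53288463 UMIs in the fibrosis library, of which 7471 and 6132 cells had a mitochondrial share under 10%. The libraries shared 15 cell barcodes. Clusters were named from marker genes and are written with the ending -like: endothelial cells of portal vessels, of sinusoidal zone 1 and zone 2/3 and of central veins, hepatic stellate cells or myofibroblasts (HSC/MF), portal fibroblasts (PF), mesothelial cells, Kupffer cells, monocytes or macrophages, lymphoid cells (NK/T-cell-like joined with B-cell-like) and others. Liver sinusoidal endothelial cells (LSECs) are the endothelial cells outside the portal and central-vein vessels, zoned or not, and include sub-clusters whose leading list was erythroid: 20 cells in normal and 235 in fibrosis led by haemoglobin genes, and 161 in fibrosis with Hba-a1 among their leading genes. The erythroid list summed to 47.9 UMIs per 10000 in normal and 4.06 in fibrosis LSEC-like cells, and without these sub-clusters 0 of 5 members were past 2-fold, as with them. LSEC-like cells also held sub-clusters whose leading list was the cell cycle, with 37 cells in normal and 34 in fibrosis. A further 255 fibrosis cells led by Uhrf1, with Mcm5 and Mcm2 among their leading genes, were named by no list. The cell-cycle list summed to 1.01 and 4.57 UMIs per 10000 in LSEC-like cells, and its part in their values was not tested. Of 14 classes checked, in the normal library every marker of a class's own list stood above the rest of the library except 1 of the 11 for portal vessels, and in fibrosis 10 of 11 did for portal vessels, 11 of 14 for PF-like, 7 of 8 for cholangiocyte-like and 5 of 7 for erythroid-like cells. The central-vein list summed to 80.4 UMIs per 10000 in normal and 25.5 in fibrosis central-vein-like cells. Portal-vessel-like cells joined a sub-cluster led by Igfbp5 (282 cells in normal, 147 in fibrosis) and one with Col8a1 and Stmn2 among its leading genes (91 and 110). The part of this make-up in the portal-vessel-like ratios was not tested. The PF list summed to 231 and 63.9 in PF-like cells, with Vit at 0 in fibrosis, while the HSC/MF list there summed to 161 and 330. Immune genes led some mesenchymal sub-clusters: Ighm, Ccl2 and Ccl5 in normal HSC/MF-like cells, S100a8 and S100a9 in a part of the fibrosis HSC/MF-like cells, and Ltf in the normal mesenchymal cells with endothelial markers.

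Levels are a gene's UMIs in every 10000 counted in a class, with an exact 95% Poisson interval, and ratios are fibrosis over normal with an exact 95% interval. All intervals cover counting error only. A ratio is called past 2-fold when it was at least 2 or at most 0.5, its interval left out 1, and the level reached 0.5 UMIs per 10000 in either library. Levels are compared between classes within a gene.

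In the normal liver the pathway was divided by cell class. Among the named classes of the normal library, S1pr1, Sgpp1, Plpp1 and Plpp3 had their highest level in an endothelial class (4 of 10). S1pr2, S1pr3, Lpar1 and Enpp2 had it in a mesenchymal class (4 of 10), and Sphk1 and Spns2 in cholangiocyte-like cells, the bile duct epithelium (2 of 10). An unnamed normal sub-cluster led by Ccl21a held more Spns2, with an overlapping interval. With a mitochondrial limit of 5% the mesenchymal count was 0. HSC/MF-like cells gave no value under that limit, and the cause of the lower count was not tested. Among the named classes of the fibrosis library, 5 had their highest level in an endothelial class, with Spns2 added, 2 in a mesenchymal class (S1pr3 and Lpar1), S1pr2 in monocyte/macrophage-like cells, and 2 elsewhere (Sphk1 in cholangiocyte-like, Enpp2 in hepatocyte-like cells, at 0.205, though an unnamed mesenchymal sub-cluster held 3.45). Several of these first ranks rested on overlapping intervals: S1pr2 in PF-like, HSC/MF-like and monocyte/macrophage-like cells, and Spns2 in cholangiocyte-like, portal-vessel-like and zone 1-like cells, could not be separated in either library.

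**Figure D1:**
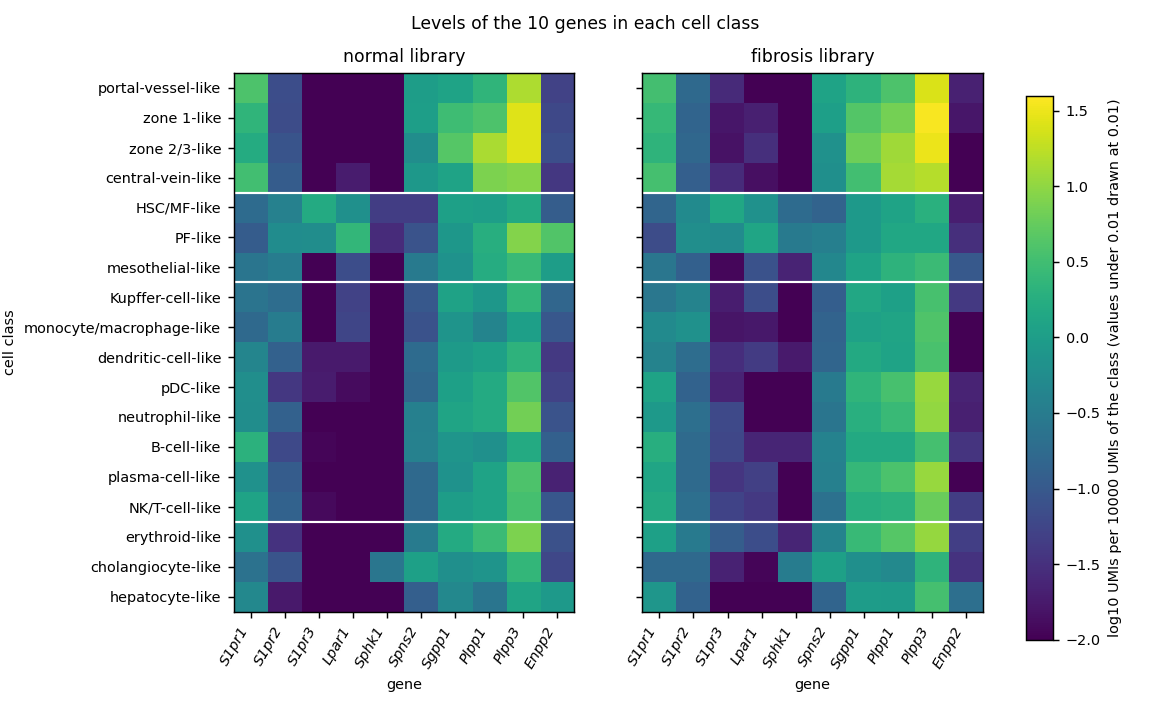
Levels of the 10 genes (columns) in each named cell class (rows) of the normal and the fibrosis library, as log10 UMIs per 10000 UMIs of the class on a colour scale, with values under 0.01 drawn at 0.01. Plpp3 is brightest in zone 1-like and zone 2/3-like rows of both libraries (26.3 and 26.8 in normal, 36.4 and 30.8 in fibrosis), S1pr3 and Lpar1 stand out in HSC/MF-like and PF-like rows, and Enpp2 in normal PF-like cells (4.25).

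S1pr1, the Gi-coupled endothelial and lymphocyte receptor, was by level highest in the vessels at both ends of the lobule and lowest in the sinusoid. In the normal library its level was 3.93 (3.69 to 4.19) UMIs per 10000 in portal-vessel-like, 2.28 (2.09 to 2.48) in zone 1-like, 1.65 (1.5 to 1.82) in zone 2/3-like and 3.24 (2.90 to 3.60) in central-vein-like cells. Portal-vessel-like cells stood 1.73-fold (1.55 to 1.92) above zone 1-like cells, and zone 1-like cells 1.38-fold (1.21 to 1.57) above zone 2/3-like cells. In fibrosis the levels were 3.36 (3.10 to 3.63), 2.60 (2.40 to 2.82), 2.23 (2.03 to 2.45) and 3.47 (3.23 to 3.73), so the 2 ends overlapped. Zone 1-like over zone 2/3-like cells was 1.17-fold (1.03 to 1.32), an interval that overlapped the normal one. The difference between these 2 ratios was not tested. Fibrosis over normal, the ratio was 1.35 (1.18 to 1.55) in zone 2/3-like, 1.14 (1.02 to 1.28) in zone 1-like and 0.853 (0.771 to 0.944) in portal-vessel-like cells.

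After each cell was thinned to 1000 UMIs, S1pr1 had a UMI in 28.2% of normal portal-vessel-like cells (23.6 to 33.0, exact binomial 95% interval, 373 cells), 20.5% of zone 1-like (16.8 to 24.7), 17.3% of zone 2/3-like (13.6 to 21.6) and 30.1% of central-vein-like cells (23.1 to 37.7). The unthinned shares were 82.0%, 68.5%, 62.7% and 74.8%, at median depths of 6628, 5426, 6296 and 6077 UMIs. In cholangiocyte-like cells, which should lack the receptor, the thinned share was 2.55% (unthinned 17%, median 9718 UMIs). The fibrosis thinned shares were 25.7% (20.5 to 31.5) in portal-vessel-like and 23.6% (18.5 to 29.2) in zone 1-like cells. They were 18.4% (13.8 to 23.9) in zone 2/3-like and 23.5% (18.0 to 29.7) in central-vein-like cells, and these intervals overlapped.

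Among lymphocytes, S1pr1 was at 2.09 (1.88 to 2.31) in normal B-cell-like cells, a level whose interval overlapped that of zone 1-like endothelium, and at 1.23 (1.12 to 1.34) in NK/T-cell-like cells. In fibrosis these were 1.82 (1.55 to 2.14) and 1.55 (1.39 to 1.72). The thinned share in B-cell-like cells was 18.6% in normal and 16.3% in fibrosis (unthinned 41.7% and 33.2%, medians 2776 and 2258 UMIs, with 1 and 3 cells under 1000 UMIs left out). In HSC/MF-like cells S1pr1 was at 0.182 (0.0787 to 0.359) and 0.147 (0.0921 to 0.223), far below every endothelial class.

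S1pr2, a receptor coupled to G12/13, was low everywhere and led in mesenchymal and myeloid cells. Its level was 0.562 (0.343 to 0.868) in normal and 0.610 (0.483 to 0.761) in fibrosis PF-like cells, and 0.387 (0.226 to 0.620) and 0.521 (0.412 to 0.651) in HSC/MF-like cells, a ratio of 1.35 whose interval reached from 0.789 to 2.43. In monocyte/macrophage-like cells it stood at 0.330 (0.236 to 0.447) and 0.665 (0.617 to 0.717), a ratio of 2.02 (1.47 to 2.84), with a UMI in 17.4% and 43.0% of cells before thinning and 1.03% and 6.24% after it (medians 6340 and 10508 UMIs). Kupffer-cell-like cells went from 0.194 to 0.404, 2.08-fold (1.47 to 3.00), under the level filter and therefore outside the counts. LSEC-like cells, at 0.0751 and 0.148 UMIs per 10000 (1.97-fold, 1.46 to 2.67), were below it too. In B-cell-like cells the share with an S1pr2 UMI was 1.84% and 3.98% unthinned and 0.167% and 1.15% thinned.

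S1pr3, a receptor linked to contractile cells, had its high levels in mesenchymal classes. In the normal library HSC/MF-like cells held 1.57 (1.22 to 1.99), mesenchymal cells with endothelial markers 0.759 (0.595 to 0.954) and PF-like cells 0.590 (0.365 to 0.903), and the next class, pDC-like cells, held 0.0190. LSEC-like cells held 2 UMIs of it in 1532 normal cells and 23 in 1265 fibrosis cells, a ratio of 10.3 (2.55 to 90.2) below the level filter. In fibrosis S1pr3 was 1.38 (1.2 to 1.59) in HSC/MF-like and 0.541 (0.422 to 0.683) in PF-like cells, ratios of 0.88 (0.667 to 1.17) and 0.916 (0.556 to 1.57). PF-like cells held 0.376-fold (0.219 to 0.620) the HSC/MF-like level in normal and 0.391-fold (0.294 to 0.515) in fibrosis. The thinned share of HSC/MF-like cells with a UMI was 10.9% (4.51 to 21.2) in normal and 10.6% (5.75 to 17.4) in fibrosis, against 48.4% and 58.5% unthinned. In LSEC-like cells the thinned shares were 0.0653% and 0.320% (unthinned 0.131% and 1.82%).

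Lpar1, the LPA receptor of fibroblasts, had the opposite order within the mesenchyme. It stood at 2.42 (1.93 to 2.99) in normal PF-like cells and 0.638 (0.424 to 0.922) in HSC/MF-like cells, 3.79-fold (2.45 to 6.03) apart, and at 1.32 (1.13 to 1.53) and 0.662 (0.538 to 0.806) in fibrosis, 2.0-fold (1.55 to 2.58) apart. Between the libraries it differed by 0.546-fold (0.419 to 0.716) in PF-like cells and 1.04-fold (0.676 to 1.64) in HSC/MF-like cells. The gene had a UMI in 79.5% of normal and 81.0% of fibrosis PF-like cells before thinning, and in 27.3% and 12.7% after it, against thinned shares of 0.131% and 0.16% in LSEC-like cells. In normal zone 1-like cells it had 0 UMIs, which allows up to 0.0129 UMIs per 10000, and no endothelial class of either library passed 0.0302.

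Sphk1, the kinase that makes S1P, was found almost only in epithelial and fibrotic mesenchymal cells. Cholangiocyte-like cells held 0.256 (0.203 to 0.319) in normal and 0.322 (0.245 to 0.416) in fibrosis. In PF-like cells 1 UMI was counted in normal and 39 in fibrosis, or 0.0281 and 0.301 UMIs per 10000, a ratio of 10.7 with an interval of 1.81 to 434. After thinning the share of PF-like cells with a UMI was 2.27% (0.0575 to 12) in normal and 1.27% (0.0320 to 6.85) in fibrosis, with overlapping intervals, against 2.27% and 30.4% unthinned. In HSC/MF-like cells the counts were 2 and 27 (0.0456 and 0.180 UMIs per 10000), a ratio of 3.96 (0.995 to 34.4). These cells were also deeper in fibrosis, with medians of 14226 against 7269.5 UMIs in PF-like and 11330 against 6278 in HSC/MF-like cells, and both ratios were under the level filter. LSEC-like cells held 0 UMIs in normal, which allows up to 0.00336 UMIs per 10000, and 1 UMI in fibrosis, so the kinase was at or near the detection limit in sinusoidal endothelium.

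Spns2, the S1P exporter of endothelial cells, was by level lowest in zone 2/3 of the normal lobule. In fibrosis its level was lower in zone 2/3 and the central vein than on the portal side. Its normal levels were 0.994 (0.875 to 1.13) in portal-vessel-like, 1.04 (0.912 to 1.18) in zone 1-like, 0.576 (0.485 to 0.679) in zone 2/3-like and 0.821 (0.658 to 1.01) in central-vein-like cells. In fibrosis they were 1.21 (1.06 to 1.38), 1.09 (0.962 to 1.23), 0.655 (0.547 to 0.777) and 0.618 (0.517 to 0.733). Zone 1-like cells exceeded zone 2/3-like cells 1.80-fold (1.46 to 2.24) in normal and 1.66-fold (1.34 to 2.07) in fibrosis. After thinning, 7.64% (5.28 to 10.6) of zone 1-like and 4.53% (2.66 to 7.16) of zone 2/3-like cells had a UMI in normal. In fibrosis these shares were 10.4% (6.98 to 14.8) and 9.84% (6.40 to 14.3), and the intervals overlapped in both libraries. Fibrosis portal-vessel-like cells had 12.1% (8.34 to 16.7) and central-vein-like cells 5.53% (2.89 to 9.46). Central-vein-like over zone 2/3-like cells was 1.43-fold (1.08 to 1.88) in normal and 0.944-fold (0.736 to 1.21) in fibrosis. The portal over central-vein ratio was 1.21 (0.945 to 1.56) in normal and 1.96 (1.57 to 2.45) in fibrosis, and the difference between those 2 ratios was not tested. Cholangiocyte-like cells held 1.12 UMIs per 10000 in both libraries (1.01 to 1.25 and 0.972 to 1.29). Their thinned shares were 11.9% (8.07 to 16.8) in normal and 5.56% (1.83 to 12.5) in fibrosis, with overlapping intervals. PF-like cells went from 3 to 46 UMIs, 0.0843 to 0.355 per 10000, a ratio of 4.21 (1.35 to 21.2) below the level filter. After thinning, 0 of 44 normal and 0 of 79 fibrosis PF-like cells had a UMI. The unthinned shares were 6.82% and 36.7%, at medians of 7269.5 and 14226 UMIs.

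Sgpp1, the S1P phosphatase, was highest in zone 2/3 of the sinusoid and higher in fibrosis in each endothelial class. The normal levels were 1.23 in portal-vessel-like, 3.06 in zone 1-like, 4.44 in zone 2/3-like and 1.23 in central-vein-like cells, and the fibrosis levels 2.16, 4.39, 6.49 and 3.27. The ratios were 1.75, 1.43, 1.46 and 2.66, the last with an interval of 2.21 to 3.24. Central-vein-like cells thereby moved from 0.276-fold (0.228 to 0.331) to 0.504-fold (0.459 to 0.553) of the zone 2/3-like level. The thinned share of central-vein-like cells with a UMI was 10.4% (6.19 to 16.2) in normal and 24.9% (19.3 to 31.2) in fibrosis, against 44.8% and 83.0% unthinned at medians of 6077 and 8930.5 UMIs. Cholangiocyte-like cells, the class with the lowest level in fibrosis, had thinned shares of 3.4% and 4.44%. In central-vein-like cells the hepatocyte list also moved, from 137 to 9.96 UMIs per 10000, beside the central-vein list at 80.4 and 25.5 and the LSEC list at 211 and 231, and their part in the Sgpp1 ratio was not tested. The ratio was 1.02 at a clustering resolution of 1.5 and was not past 2-fold in 4 of 12 alternatives, which were 2 clustering resolutions, no mitochondrial limit and removal of the top 5% of Scrublet scores.

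Plpp1, a surface lipid phosphate phosphatase, was highest in zone 2/3 of the sinusoid in normal liver. Its level was 2.30 in portal-vessel-like, 3.91 in zone 1-like, 13.8 in zone 2/3-like and 7.68 in central-vein-like cells, and no 2 of these intervals overlapped. Zone 1-like cells held 0.285-fold (0.264 to 0.306) the zone 2/3-like level in normal and 0.570-fold (0.535 to 0.607) in fibrosis, where the levels were 3.94, 7.03, 12.3 and 12.9. The ratio of fibrosis over normal was thus 1.80 in zone 1-like, 1.71 in portal-vessel-like and 1.67 in central-vein-like cells but 0.897 in zone 2/3-like cells. A UMI was present after thinning in 29.8% of normal and 49.0% of fibrosis zone 1-like cells, and in 73.6% and 70.5% of zone 2/3-like cells, against 6.38% and 4.44% of cholangiocyte-like cells.

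Plpp3, a related phosphatase that degrades LPA and S1P outside the cell, was counted in most sinusoidal cells, with a thinned share of 86.6% in normal zone 1-like and 88.8% in zone 2/3-like cells. In the normal library it was even across the sinusoid, where zone 1-like cells held 26.3 (25.6 to 26.9) and zone 2/3-like cells 26.8 (26.1 to 27.4), and it was lower in both vessels, at 14.2 and 8.85. In fibrosis it was 36.4 (35.6 to 37.1) in zone 1-like, 30.8 (30.0 to 31.6) in zone 2/3-like, 25.3 in portal-vessel-like and 15.6 in central-vein-like cells. The ratios were 1.38, 1.15, 1.78 and 1.76, all under 2-fold. Zone 1-like over zone 2/3-like cells was 0.980-fold (0.947 to 1.02) in normal and 1.18-fold (1.14 to 1.22) in fibrosis.

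**Figure D2:**
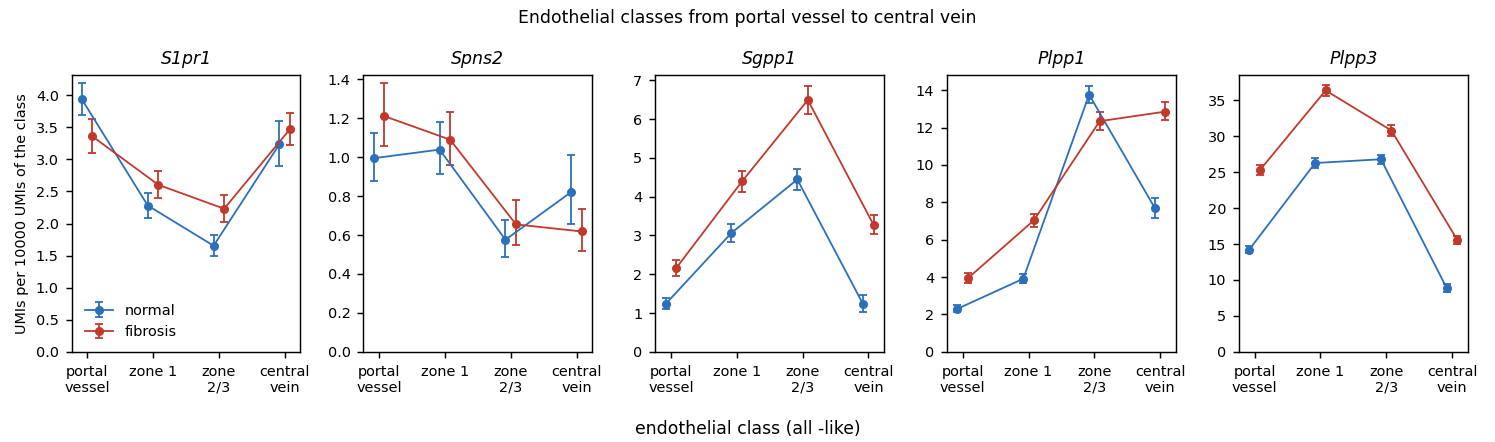
Levels of 5 genes in UMIs per 10000 (vertical axes, starting at 0) across the endothelial classes from portal vessel to central vein, in normal (blue) and fibrosis (red), with exact 95% counting intervals. S1pr1 dips in the sinusoid (1.65 in normal zone 2/3-like cells), Plpp1 peaks there in normal (13.8) but is level with the central vein in fibrosis (12.3 and 12.9), and Sgpp1 is higher in fibrosis in all 4 classes.

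Counted over the members, no endothelial class but the central vein held a call. Of the 5 members above the level filter in each, 0 were past 2-fold in zone 1-like cells (7.87% of all 4510 genes tested there were), 0 in zone 2/3-like (8.18% of 4489), 0 in LSEC-like (7.97% of 4528) and 0 in portal-vessel-like cells (9.17% of 4626). In central-vein-like cells 1 of 5 was (Sgpp1, higher), beside 14.7% of 4703 genes. The median ratio of the members was 1.38 in zone 1-like, 1.15 in zone 2/3-like, 1.71 in portal-vessel-like and 1.67 in central-vein-like cells, where the median over all genes was 1.05, 1.05, 1.04 and 1.09. From normal to fibrosis, the hepatocyte list went from 161 to 12.3 UMIs per 10000 in zone 1-like, 139 to 12.1 in zone 2/3-like and 140 to 13.2 in portal-vessel-like cells. In portal-vessel-like cells the LSEC list went from 176 to 214 and the Kupffer list from 4.74 to 17.9. Their part in the ratios was not tested.

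In the mesenchyme members were past 2-fold in PF-like and mesothelial-like cells. Of 7 members above the filter in PF-like cells 2 were past 2-fold, both lower in fibrosis (Plpp3 and Enpp2), beside 22.2% of 4572 genes. In HSC/MF-like cells 0 of 6 were, beside 14.7% of 4383 genes, and in mesothelial-like cells 1 of 4 was (Enpp2, lower), beside 19.6% of 4528.

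Plpp3 in PF-like cells was 8.69 (7.75 to 9.71) UMIs per 10000 in normal and 1.38 (1.19 to 1.6) in fibrosis, a ratio of 0.159 (0.132 to 0.192) that stayed past 2-fold in 11 of 11 alternatives. The thinned share of PF-like cells with a UMI went from 54.5% (38.8 to 69.6) to 15.2% (8.1 to 25), and the unthinned share from 93.2% to 81.0%. In cholangiocyte-like cells, the named class with the lowest fibrosis share, the thinned share was 19.6% and 14.4% (unthinned 68.5% and 86.7%). In Kupffer-cell-like cells it was 16.9% and 20.9%, and how much of these shares is RNA from other cells was not tested. HSC/MF-like cells held 1.55 and 1.90, a ratio of 1.23 (0.941 to 1.63), so PF-like cells held 5.61-fold (4.30 to 7.41) their level in normal and 0.726-fold (0.599 to 0.878) in fibrosis. The PF marker list was also lower in this class in fibrosis, at 63.9 against 231 UMIs per 10000, while its HSC/MF list went from 161 to 330, above the 319 of the fibrosis HSC/MF-like cells. The ratios of PF-like cells thus compare clusters of unlike marker content, and the part of this in them was not tested.

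Enpp2, which encodes autotaxin, was counted in PF-like cells with 151 UMIs in normal and 4 in fibrosis, 4.25 (3.60 to 4.98) and 0.0309 (0.00842 to 0.0791) UMIs per 10000. The ratio was 0.00728 (0.00196 to 0.0190), between the same clusters of unlike marker content. A single cell held 75 of the 151 UMIs and the highest 3 cells together 107, while 22 of 44 cells had at least 1. Without the top cell the normal level was 2.14. In mesothelial-like cells Enpp2 stood at 1.0 in normal and 0.103 in fibrosis, a ratio of 0.103 (0.0447 to 0.210), where 40 of 56 normal UMIs were in 1 cell and the ratio turned to 1.59 with 4000 variable genes. It was past 2-fold in 9 of 11 alternatives. In mesothelial-like cells the mesothelial list went from 150 in normal to 60.8 UMIs per 10000 in fibrosis, and the hepatocyte list from 74.7 to 6.96. The part of these lists in the ratio was not tested.

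The fibrosis mesenchyme was not without Enpp2. A sub-cluster of 29 cells led by Clca3a2, Cxcl5 and Fndc1, which no marker list named, held 292 UMIs or 3.45 (3.07 to 3.87) per 10000, spread over 21 of its cells with 66 in the highest, at a median depth of 31795 UMIs. Its PF list summed to 20.2 UMIs per 10000, with Aspn at 0, its mesothelial list to 19.7 and its HSC/MF list to 120, so the lists do not settle whether it holds portal fibroblasts like those of the normal library. Plpp3 stood at 2.90 (2.54 to 3.28) in it. Over all mesenchymal cells the Enpp2 level was 1.1 (0.974 to 1.24) in normal and 0.270 (0.242 to 0.300) in fibrosis. The highest 3 cells held 157 of the 266 normal and 130 of the 342 fibrosis UMIs. Without the top cell the levels were 0.791 and 0.218. In hepatocyte-like cells Enpp2 stood at 0.860 (0.698 to 1.05) and 0.205 (0.125 to 0.317). Endothelial and immune classes lay between 0.0221 and 0.155 in normal and at most 0.0447 in fibrosis, and the summed hepatocyte list in lymphoid cells was 255 and 23.2 UMIs per 10000, whose part in these levels was not tested.

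S1pr3 also differed inside the fibrosis HSC/MF-like class, which joined 2 sub-clusters. In the 56 cells led by Ankrd1, with a median of 16996.5 UMIs, S1pr3 was 1.03 (0.837 to 1.24) and Sphk1 0.239 (0.153 to 0.356). In the 67 cells led by S100a8 and Hhip, with a median of 6292 UMIs, S1pr3 was 2.11 (1.73 to 2.56) and Sphk1 0.0609 (0.0126 to 0.178). The intervals of Sphk1 overlapped between them, as did those of Lpar1, at 0.737 and 0.508. The normal HSC/MF-like level of S1pr3, 1.57 (1.22 to 1.99), lay between its levels in these sub-clusters, which the ratio of 0.88 pools.

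Mesenchymal sub-clusters that carried endothelial markers held both receptor types. In the 60 normal and 133 fibrosis cells of this kind, S1pr1 was 0.946 and 1.74 UMIs per 10000, against 0.182 and 0.147 in HSC/MF-like cells, and S1pr3 was 0.759 and 0.633, against 0.00224 and 0.0231 in LSEC-like cells. Plpp3 was 13.9 and 16.2. These cells were deep, with medians of 15440.5 and 23549 UMIs against 5542 and 7362 in LSEC-like and 6278 and 11330 in HSC/MF-like cells, and their median Scrublet doublet scores were 0.134 and 0.0891, against 0.0448 and 0.0554 in LSEC-like cells. The part of doublets in them was not tested.

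**Figure D3:**
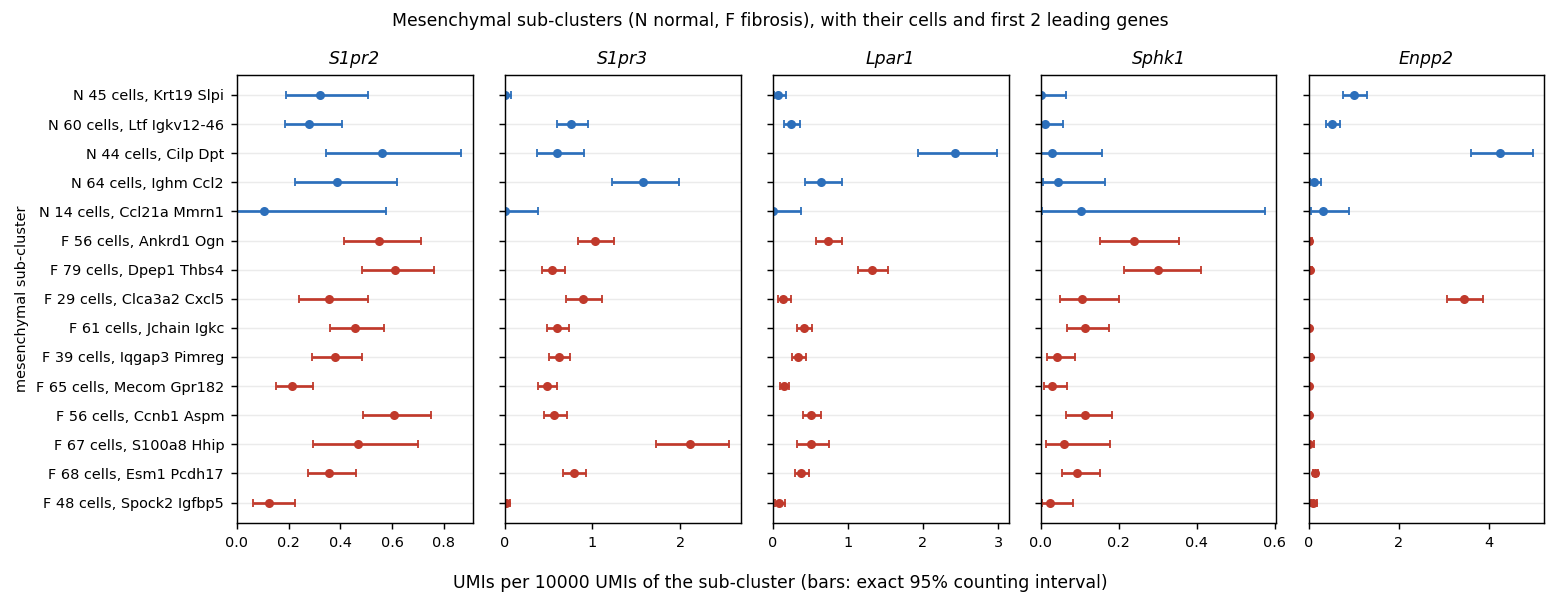
Levels of 5 genes in UMIs per 10000 (horizontal axes) in each mesenchymal sub-cluster of the normal (N, blue) and fibrosis (F, red) library, labelled by its cells and first leading genes, with exact 95% counting intervals. Enpp2 is high in the normal PF-like sub-cluster led by Cilp (4.25) and in the fibrosis sub-cluster led by Clca3a2 (3.45), while the fibrosis PF-like sub-cluster led by Dpep1 holds 0.0309.

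Among immune cells, monocyte/macrophage-like cells held 4 of 5 members past 2-fold, all higher in fibrosis (S1pr1, S1pr2, Plpp1 and Plpp3), beside 20.1% of 4352 genes. Their levels went from 0.169 to 0.526 for S1pr1, from 0.330 to 0.665 for S1pr2, from 0.426 to 1.27 for Plpp1 and from 1.06 to 4.05 for Plpp3, ratios of 3.12, 2.02, 2.98 and 3.81. The class held different clusters in the libraries. In normal it was 195 cells led by Serpinb2 and F13a1, and in fibrosis 364 cells led by Olr1, Ighg2b and Vsig8 and 489 led by Syngr1 and Gpnmb. The 364 cells were named by patrolling-monocyte markers, with 0 among the leading 10 genes and 3 among the leading 50. Its Kupffer list was 41.5 UMIs per 10000 in normal, and 40.0 and 109 in these fibrosis clusters. S1pr1, Plpp1 and Plpp3 stood at 1.19, 3.14 and 9.70 in the first fibrosis cluster and at 0.268, 0.536 and 1.83 in the second. S1pr2 had the opposite order, at 0.373 (0.306 to 0.449), which overlaps the normal level, and 0.780 (0.718 to 0.846). The part of this make-up in the ratios was not tested. None of the 4 calls held in every alternative: they were past 2-fold in 5, 7, 7 and 8 of 10, and without the cells of the highest Scrublet scores the ratio was 1.03 for S1pr1 and 1.43 for Plpp3. Kupffer-cell-like cells held 0 of 3 past 2-fold, beside 8.49% of 4147 genes, and lymphoid cells 0 of 4, beside 13.9% of 4871 genes. In lymphoid cells Sgpp1, Plpp1 and Plpp3 had nearly equal ratios of 1.84, 1.85 and 1.84.

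**Figure D4:**
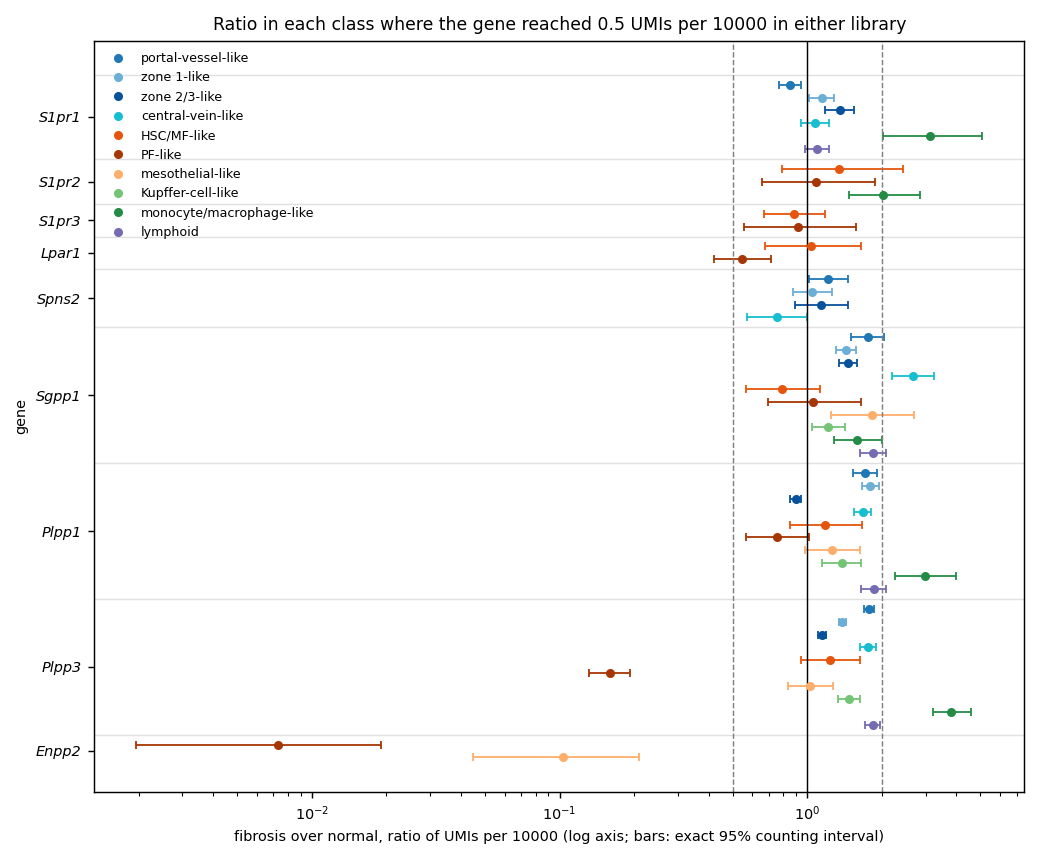
Ratio of fibrosis over normal (log axis) for each gene in each of 10 classes where it reached 0.5 UMIs per 10000 in either library, with exact 95% intervals, a solid line at 1 and dashed lines at 0.5 and 2. Enpp2 in PF-like (0.00728) and mesothelial-like cells (0.103) and Plpp3 in PF-like cells (0.159) lie far to the left, and 4 genes in monocyte/macrophage-like cells and Sgpp1 in central-vein-like cells (2.66) lie to the right of 2.

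Endothelial RNA was counted in every immune class, and its share was higher in fibrosis in monocyte/macrophage-like and lymphoid cells, as were Plpp1 and Plpp3. Summed over 11 endothelial genes, which were chosen after the data were seen, monocyte/macrophage-like cells held 4.59% of the LSEC-like level in normal and 13.6% in fibrosis, and lymphoid cells 13% and 19.4%. Scaled by these shares, the LSEC-like Plpp3 level gave 1.2 in normal and 4.19 in fibrosis for monocyte/macrophage-like cells, where 1.06 and 4.05 were measured, so measured over scaled was 0.885 and 0.966. For Plpp1 it was 1.04 in both libraries. In B-cell-like cells S1pr1 stood at 13.3 and 6.15 times its scaled level, in NK/T-cell-like cells 4.26 and 3.00 times, and in monocyte/macrophage-like cells 1.92 and 1.65 times. S1pr2 in monocyte/macrophage-like cells stood at 95.6 and 33.2 times it, and Spns2 in cholangiocyte-like cells 18.8 and 23.6 times. In PF-like cells Plpp3 was 6.57 times the scaled level in normal and 0.909 times in fibrosis. The part of endothelial RNA in the Plpp1 and Plpp3 ratios of immune cells was not tested.

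**Figure D5:**
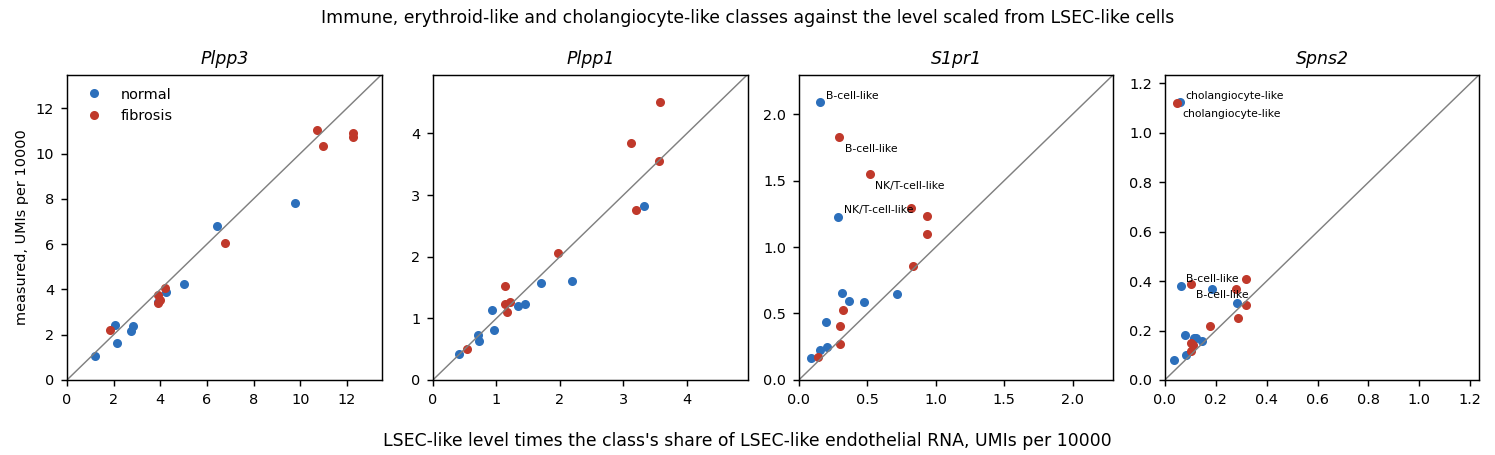
Measured level of Plpp3, Plpp1, S1pr1 and Spns2 (vertical axes, UMIs per 10000) in immune, erythroid-like and cholangiocyte-like classes against the LSEC-like level scaled by the class's share of endothelial RNA (horizontal axes), normal in blue and fibrosis in red, with a line of equality. Plpp3 and Plpp1 lie near the line, S1pr1 lies above it in B-cell-like (2.09 and 1.82) and NK/T-cell-like cells, and Spns2 in cholangiocyte-like cells (1.12 in both).

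Of 57 further genes of the 2 pathways (28 of S1P and sphingolipid metabolism, 18 of LPA metabolism and reception, 11 partners of the receptors), none to 7 were past 2-fold in a class, and those named here as such were picked after their values were seen. The count was 0 of 27 above the filter in zone 1-like, 0 of 28 in zone 2/3-like, 0 of 27 in LSEC-like, 0 of 27 in portal-vessel-like and 0 of 22 in HSC/MF-like cells, beside 7.87%, 8.18%, 7.97%, 9.17% and 14.7% of all genes. It was 1 of 27 in central-vein-like cells (Gna12, the G12 subunit, at 1.1 in normal and 3.04 in fibrosis), 3 of 21 in PF-like cells (Gna12 higher, Sptssa and Pla2g4a lower), 2 of 24 in mesothelial-like and 1 of 25 in Kupffer-cell-like cells. In Kupffer-cell-like cells this was Sgpl1, the lyase that breaks S1P down irreversibly, at 1.54 and 3.11. These counts stand beside 14.7%, 22.2%, 19.6% and 8.49% of all genes. Monocyte/macrophage-like cells held 6 higher and 1 lower of 29, beside 20.1% of all genes, with Sgpl1 going from 1.03 to 2.75, and lymphoid cells 4 higher and 2 lower of 29, beside 13.9%, with S1pr4, a receptor of leukocytes, going from 0.710 to 0.343. The other receptor, lyase and phosphatase genes named by rule, each in the class of its highest level, were Sgpl1 in fibrosis Kupffer-cell-like cells, Lpar6 in normal zone 2/3-like cells (3.95, 3.70 to 4.21), S1pr4 in normal B-cell-like cells (0.795), Lpar4 in fibrosis PF-like cells (0.703) and Plpp2 in fibrosis cholangiocyte-like cells (0.700).

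Across 39 classes of both libraries, which share depth and RNA from other cells within a library, the genes whose levels ran most like each member were described by Pearson's r of log2 levels over 4575 genes. For S1pr1 they were Pecam1 (0.908), Ppp1r16b (0.906) and Gimap8 (0.894), for Sgpp1 Stab2 (0.941), Plxnc1 (0.940) and Gatm (0.936), for Plpp1 Prickle1 (0.954), Tcim (0.947) and Tpbgl (0.940), and for Plpp3 Tspan18 (0.962), Hecw2 (0.957) and Fam124a (0.954). S1pr3 ran with Srpx2 (0.983), Ms4a4d (0.978) and Des (0.971), the last encoding the stellate cell filament desmin, and Lpar1 with Islr (0.957), Igsf10 (0.951) and Htra3 (0.944). Values were lower for Spns2, with Syt7 (0.862), Adgrg1 (0.860) and Smco4 (0.856), and for Enpp2, with Clec3b (0.730), Atf5 (0.718) and Serpinf1 (0.712). S1pr2 and Sphk1 stayed under 1 UMI per 10000 in every class and were left out of this description. Pecam1, Stab2, Plxnc1, Gatm, Des and Clec3b were also on the lists used to name cells.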

How the data were processed

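The data were 2 tables of UMI counts per gene and cell, deposited by the authors without normalization. Per the submitters' processing notes they came from Cell Ranger 3.0.1 with mm10. The study's methods state that doublets were excluded with Scrublet, but that could not be traced in the tables, and no cell was removed as a doublet here. Cells with more than 200 genes and a mitochondrial share under 10% were kept, which left 7471 cells in normal and 6132 in fibrosis, with medians of 4226 and 5775.5 UMIs.

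Each library was clustered on its own (2000 variable genes, 10 principal components, 20 neighbours, Leiden resolution 0.8), and endothelial and mesenchymal cells were clustered again. A cluster took the list with most markers among its 10 leading genes by fold, then among the leading 50, then by mean fold, where at least 3 of that list's markers stood above the other cells, and for sub-clusters at least 2 were among the leading 50. Some names rest on few leading markers: hepatocyte-like on 0 of the leading 50 in normal, cholangiocyte-like on 2 in both libraries and a zone 1-like sub-cluster of 110 normal cells on 2. Hepatocyte markers were left out when sub-clusters were named, since they were present in every class. Counts were summed per class and given as UMIs per 10000 with exact Poisson intervals, ratios with exact conditional intervals, and shares after thinning to 1000 UMIs with Clopper-Pearson intervals. Where no UMI was counted, 3 counts gave the upper limit. No count model or p-value was used, since each condition is 1 library.

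The 10 members, the pathway genes and the marker lists were chosen with earlier results of these data known. The naming rule took all 10 members, the 5 other receptor, kinase, lyase and phosphatase genes of the highest level in any class, every pathway gene past 2-fold in LSEC-like or HSC/MF-like cells (there were 0), and the 3 genes that ran most like each member by Pearson's r of log2 levels with a pseudocount of 0.1. The 11 endothelial genes used to scale LSEC-like levels, and 3 alternatives that leave out sub-clusters, were chosen after the data were seen. On simulated counts for LSEC-like cells, 198 of 200 genes changed 4-fold among 4045 were found past 2-fold, with 0 unchanged genes past it and 95.2% of intervals covering the true ratio. Python 3.11.15 was used with scanpy 1.11.5, anndata 0.12.19, leidenalg 0.10.2, igraph 0.11.9, scikit-learn 1.9.0, scipy 1.17.1, numpy 2.4.6, pandas 2.3.3 and matplotlib 3.10.9.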

Additional observations from a re-analysis of the deposited data

Results flagged for a closer look

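Plpp3 had unlike ratios of fibrosis over normal in different classes. They were 1.78 in portal-vessel-like, 1.76 in central-vein-like, 3.81 in monocyte/macrophage-like and 1.84 in lymphoid cells, and 0.159 in PF-like cells. What drew attention is that the gene was at least 1.5-fold higher in fibrosis in 4 classes and at least 1.5-fold lower in 1, with intervals that left out 1. Without the top 5% of Scrublet scores the monocyte/macrophage-like ratio was 1.43. In fibrosis the level was 0.966 times the scaled endothelial level in monocyte/macrophage-like and 0.887 times in lymphoid cells, and in PF-like cells the PF marker list was also lower in fibrosis. The difference between classes was not tested over samples, since each condition is 1 library.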

How the results depend on the processing

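No paired analysis was possible because each condition has 1 library and no test was run, and for the same reason no replicate could be left out. Over 54 ratios and their alternatives, 450 of 619 values moved by less than the counting interval, 168 moved by more and 1 reversed: Enpp2 in mesothelial-like cells was 1.59 with 4000 variable genes. UMIs per cell in place of UMIs per 10000 moved 45 of 54, and the mitochondrial limit of 5% moved 22 of 32.

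The count of members past 2-fold in zone 1-like cells was 0 and became 1 with 4000 variable genes (Plpp1), 3 with UMIs per cell and 2 without the level filter. Without that filter it became 1 in zone 2/3-like (Enpp2), 2 in LSEC-like, 1 in HSC/MF-like (Enpp2), 1 in portal-vessel-like (S1pr2), 2 in Kupffer-cell-like (S1pr2 and Enpp2), 2 in central-vein-like, 2 in mesothelial-like, 4 in PF-like, 6 in monocyte/macrophage-like and 3 in lymphoid cells, and with UMIs per cell 3 in HSC/MF-like cells. In lymphoid cells it was also 1 with the mitochondrial limit of 5%, 1 with no limit, 2 at resolution 0.4, 1 at resolution 1.5 and 2 without the top 5% of Scrublet scores. With the mitochondrial limit of 5%, the members highest in a mesenchymal class in normal went from 4 to 0. Zone 1-like cells gave no value under the mitochondrial limit of 5% or with no limit, and HSC/MF-like cells gave none under the limit of 5% or without the top Scrublet scores. The cause of these changes was not tested, apart from the filter.

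Sgpp1 in central-vein-like cells ranged from 1.02 to 4.01 and Plpp3 in PF-like cells from 0.129 to 0.323. Enpp2 in PF-like cells ranged from 0.00468 to 0.0148. In monocyte/macrophage-like cells S1pr1 ranged from 1.03 to 6.01, S1pr2 from 1.87 to 3.89, Plpp1 from 1.38 to 5.74 and Plpp3 from 1.43 to 7.35. Depth limits what can be said of low genes: in 19 normal and 20 fibrosis classes Sphk1 had no UMI in 12 and 7, S1pr3 in 6 and 0, Lpar1 in 5 and 2 and Enpp2 in 0 and 3.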

Other observations

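A sub-cluster of 14 normal cells led by Ccl21a and Mmrn1, clustered with the mesenchymal cells and named by no marker list, had UMIs of 4 of 17 HSC/MF and 6 of 14 PF markers, so its values go against calling it mesenchymal. It held S1pr1 at 2.48 (1.59 to 3.69) and Spns2 at 1.76 (1.02 to 2.81) UMIs per 10000, with 0 UMIs of S1pr3 and Lpar1.

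The 29 fibrosis mesenchymal cells led by Clca3a2, Cxcl5 and Fndc1 held S1pr3 at 0.886 (0.697 to 1.11) and Lpar1 at 0.142 (0.0733 to 0.248), beside their Enpp2 level of 3.45. In the fibrosis sub-clusters led by cell-cycle genes, of 39 and 56 cells, S1pr1 was 1.12 (0.965 to 1.30) and 0.191 (0.126 to 0.278), with median depths of 40791 and 23519 UMIs.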
